A study of Mus musculus with 2 samples.

Results

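Among the noncoding RNAs of the newborn mouse cerebral cortex, 10 genes for structured RNAs were examined by symbol: Rn7s1, Rn7s2, Rn7sk, Rpph1, Rmrp, Terc, Rny1, Rny3, Rnu11 and Rnu12. They were held by 11 of 55536 annotated gene entries, because Rmrp has 2 entries at the same place. Total RNA came from the left cerebral cortex of female B6CASTF1/J mice, a first-generation hybrid of C57BL/6J and CAST/EiJ, aged 4 days. There were 2 libraries, biological replicates 1 and 2 of 1 untreated group, each made from 300 ng of RNA with ERCC spike-in RNAs added. Each replicate had its own tissue sample, but the labels give both the same donor identifier, so it is open whether the spread between them is that between animals. No genotype, treatment or tissue was contrasted. Each library was quantified by the authors in 2 ways: a gene table built on alignments to the transcriptome (below, the first table) and a transcript table made directly from the reads and summed per gene (the second table). The study's design therefore allows levels, a comparison of these 2 libraries and a comparison of the 2 tables, but none between conditions.

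RNA polymerase III makes small untranslated RNAs that fold into stable shapes and work as the core of an RNA-protein particle. The RNA of the signal recognition particle (7SL, from Rn7s1 and Rn7s2), the 7SK RNA, the RNAs of ribonuclease P (Rpph1) and ribonuclease MRP (Rmrp) and the Y RNAs (Rny1, Rny3) are of this kind. The telomerase RNA (Terc) and the minor spliceosome RNAs U11 and U12 (Rnu11, Rnu12) are also short and structured, but RNA polymerase II makes them. None of the members carries a long poly(A) tail in its common form, so they are seen in total RNA libraries rather than in poly(A)-selected ones.

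Annotated genes held 29310533 counts in replicate 1 and 28844674 in replicate 2 of the first table, and 29816734 and 29854225 in the second. Spike-in RNAs made up 0.330% and 0.346% of first-table counts. Markers went with the tissue label: 8 of 8 cortical neuron markers were detected, with summed TPM (counts scaled by effective length, as a share of a fixed total) of 1959 and 1915, while the 3 hindbrain markers summed to 0.14 and 0.06, with Hoxa2 and Hoxb3 at 0. Mitochondrial ribosomal RNAs held 3.16% and 3.03% of counts. The replicates differed in markers of other tissues: the 5 blood markers summed to 477 TPM in replicate 1 and 62.9 in replicate 2, and the 4 choroid plexus markers to 213 and 3.28. The choroid plexus sum rested mainly on 1 marker, with a mean of 104 TPM. Only 1 of the 4 was detected in both libraries, and their medians were 2.83 and 0.635 TPM.

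Of the 10 genes 9, or 10 of 11 entries, were detected in the first table, where detected means that TPM reached 1 in each library. The same was true of 27.6% of all annotated genes. Together the members took 4.36% of all counts in replicate 1 and 4.04% in replicate 2 (4.20% ± 0.232, SD, n = 2). Per length their part was larger, 32.2% and 30.8% of all TPM (31.5% ± 0.979, SD, n = 2). The 10 genes spanned the whole range of levels, from the most abundant entries of the table to 1 gene with no reads. In the second table the same members took 0.0000872% and 0.000107% of counts, and only Rpph1 and Terc were detected. Because the TPM total is fixed, the very high members lower the TPM of every other gene in the first table; rescaled to protein-coding genes, they amounted to 59.4% of the protein-coding TPM.

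**Figure D1:**
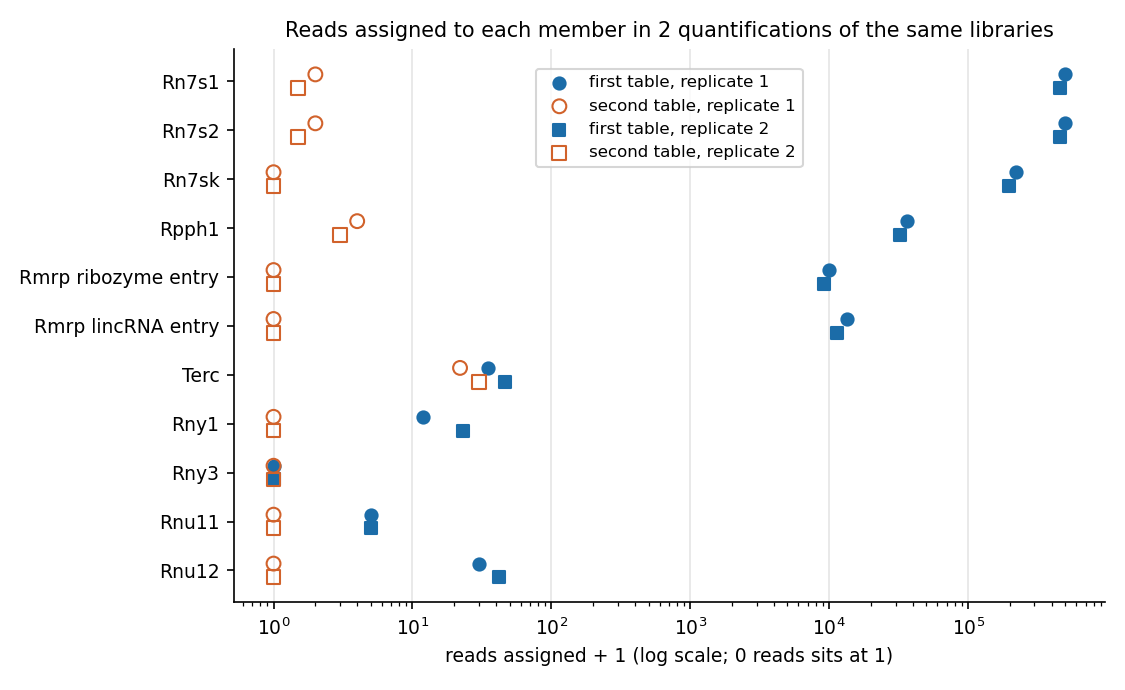
Reads assigned to each of the 11 member entries, plus 1, on a log axis, in the first table (filled) and second table (open), with circles for replicate 1 and squares for replicate 2. Rn7s1, Rn7s2, Rn7sk, Rpph1 and the Rmrp entries lay at 9135 or more in the first table and at 3 reads or fewer in the second, while the Terc points of both tables lay close together.

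The signal recognition particle RNA was the most abundant. This particle binds signal sequences as they leave the ribosome and brings the ribosome to the endoplasmic reticulum, and 7SL is its scaffold. Rn7s1 (ENSMUSG00000099021.1, chr12:69159295-69159594, plus strand, mm10) and Rn7s2 (ENSMUSG00000099250.1, chr12:69361182-69361481, minus strand) are annotated as misc_RNA genes of 1 exon and 300 bases. Each held 498839 counts in replicate 1 and 457671 in replicate 2, and the same TPM, 127798 and 123123 (125460 ± 3306, SD, n = 2). They shared rank 1 among all 55536 genes by mean TPM, and with 25.7% and 24.8% of the TPM they made up most of the share of the members. The transcripts of both are identical over all 300 bases, so no read can tell the genes apart. A read of 100 bases, the length that the deposited effective lengths imply, can start at 201 positions in each.

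All 201 windows of 100 bases of Rn7s1 occur in Rn7s2, 74 occur in Rn7s6 (chromosome 6) and 5 in Gm26461 (chromosome 9). Here and below, windows were compared with transcripts in the sense direction only, so overlap on the opposite strand is not counted. The posterior SD that the authors' quantifier gave for each count, a measure of reads it could not place, was 17527 counts in replicate 1 and 21771 in replicate 2 for Rn7s1. That was 3.50% and 4.83% of the count, or 24.8 and 32.4 times the square root of the count, the error that counting alone would give. Over 16255 genes the median of this ratio was 0, and 628 were above 1. The even split is thus set by the quantifier: the posterior mean counts, which the same table lists, were 501364 for Rn7s1 and 496312 for Rn7s2 in replicate 1, and 450476 and 464865 in replicate 2. The sum of the pair, 997677 and 915342 counts, does not depend on this split. The copies Rn7s6 (10.6 and 11.2 TPM) and Gm26461 (9.72 and 7.37 TPM) were far below them.

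The locus of Rn7s1 lies next to another gene of the translation apparatus. Rps29, which encodes a protein of the small ribosomal subunit, starts 109 bases away on the opposite strand, head to head with Rn7s1, and stood at 712 and 679 TPM. Rn7s1 and Rn7s2 each overlap 2 entries of the miRNA biotype on their own strand, and these 4 were at 0 counts in both libraries. The protein partners of 7SL stood far below it in TPM. All 10 measured genes of the particle and its receptor were detected, at a median of 26.7 and 27.3 TPM. Srp14, whose product binds the Alu domain of 7SL, stood at 81.7 ± 3.68 TPM (SD, n = 2), Srp72 at 61.4 ± 1.84 and Srp54a, which encodes the signal-sequence-binding subunit, at 52.3 ± 1.94. Srprb, the membrane anchor of the receptor, was the lowest at 12.2 ± 0.0424.

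Rn7sk was rank 3 of all genes. The 7SK RNA, with Larp7, Mepce and Hexim proteins, holds the elongation kinase P-TEFb (Cdk9 with cyclin T) in an inactive store. Rn7sk (ENSMUSG00000065037.1, chr9:78175303-78175633, minus strand, 331 bases, misc_RNA) held 221681 and 195881 counts, or 49204 and 45655 TPM (47429 ± 2510, SD, n = 2). Both libraries placed it below 7SL and above every other member. Of its 232 windows of 100 bases, 142 also occur in other annotated genes: 142 in Gm24447 (chromosome 15), 136 in Gm26315 (chromosome 2) and 10 in Gm26035 (chromosome X). Yet its posterior SD was 4.02 and 3.48 counts, far under the square root of the count, and Gm26315 (4.52 and 2.35 TPM), Gm26035 (7.29 and 6.19 TPM) and Gm24447 (0 counts) took few reads. Shared sequence therefore came with a large assignment error in 7SL and with a small one in 7SK.

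All 7 genes of the 7SK particle and P-TEFb were detected, at a median of 18.9 and 16.4 TPM. Cdk9, the kinase, was the highest at 42.3 ± 1.82 TPM (SD, n = 2), followed by the cyclins Ccnt2 at 25.3 ± 6.71 and Ccnt1 at 24.1 ± 2.06. Hexim1, which blocks the kinase when bound to 7SK, was the lowest at 11.5 ± 0.120. Larp7, which binds the 3′ end of 7SK, stood at 11.6 ± 0.212 and Mepce, which caps its 5′ end, at 17.6 ± 1.81.

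Rpph1 and Rmrp were the main ribozyme genes of the table. Ribonuclease P trims the 5′ ends of tRNA precursors, ribonuclease MRP cuts precursor ribosomal RNA, and both share most of their proteins. Rpph1 (ENSMUSG00000092837.1, chr14:50807449-50807767, minus strand, 319 bases) held 36371 and 32195 counts, or 8513 and 7913 TPM (8213 ± 424, SD, n = 2), rank 1 of 22 ribozyme genes and rank 7 of all genes. Of its 220 windows, 134 also belong to Ccnb1ip1, a coding gene on the same strand whose annotated exons overlap it. The reads went to Rpph1: Ccnb1ip1 was given 1.00 and 3.33 counts, and the posterior SD of Rpph1 was 6.99 and 6.49 counts. Parp2, a DNA repair gene, starts 74 bases away on the opposite strand, head to head with Rpph1, and stood at 16.7 TPM in both libraries.

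The Rmrp locus is annotated as a ribozyme (ENSMUSG00000088088.1, chr4:43492788-43493058, minus strand, 271 bases) and as a lincRNA (ENSMUSG00000115420.1, chr4:43492783-43493063, minus strand, 281 bases). The longer entry is the shorter one with 5 bases added at each end, in capitals in the sequence (like those that follow, from the GENCODE M21 transcripts on GRCm38) because only reads that reach them can separate the entries:
Rmrp: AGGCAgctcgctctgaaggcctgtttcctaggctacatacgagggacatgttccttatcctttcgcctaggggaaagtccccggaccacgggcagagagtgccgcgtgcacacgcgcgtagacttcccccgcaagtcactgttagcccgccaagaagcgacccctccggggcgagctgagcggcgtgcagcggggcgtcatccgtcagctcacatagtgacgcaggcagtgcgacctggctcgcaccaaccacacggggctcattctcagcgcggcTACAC

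The ribozyme entry held 9935 and 9135 counts, or 2974 and 2872 TPM (2923 ± 72.4, SD, n = 2). The lincRNA entry was the higher in both libraries, with 13362 and 11408 counts, or 3781 and 3389 TPM (3585 ± 277, SD, n = 2). None of the 172 windows of the ribozyme entry and 10 of the 182 of the lincRNA entry are unique. The posterior SD was 483 and 461 counts for both entries, or 4.95% and 5.07% of the ribozyme count and 3.57% and 4.03% of the lincRNA count. Summed, Rmrp held 23297 and 20543 counts, or 6755 and 6261 TPM (6508 ± 349, SD, n = 2), below Rpph1 in both libraries. Ccdc107, a coding gene on the opposite strand that overlaps Rmrp, held 213 and 197 counts. Whether the counting used strand is not given in the sources used here, so reads from the overlap could not be told apart by strand with certainty.

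**Figure D2:**
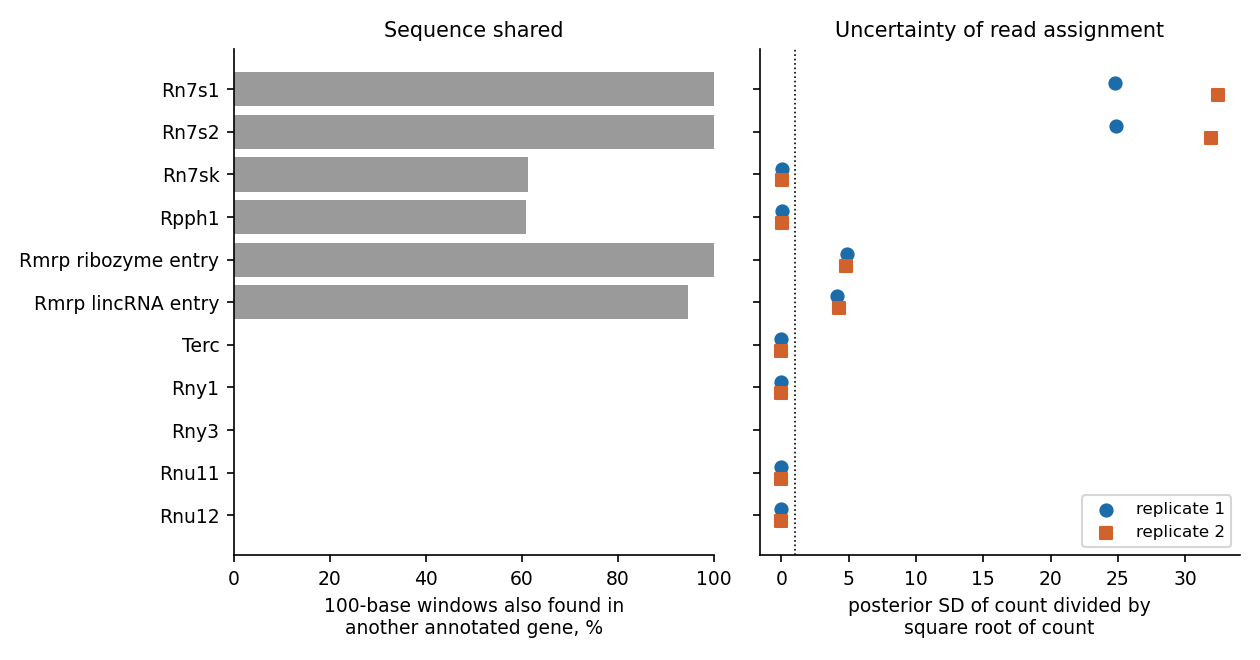
Left, the share of windows of 100 bases of each member entry that also occur in another annotated gene, in percent, compared in the sense direction only. Right, the posterior SD of each count divided by the square root of the count, with circles for replicate 1, squares for replicate 2 and a dotted line at 1; Rny3 has no point because it had no reads. Rn7s1 and Rn7s2 stood at 24.8 to 32.4 and the Rmrp entries above 1, while Rn7sk and Rpph1 were near 0 although most of their windows are shared.

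All 11 measured genes for the proteins of ribonuclease P and MRP were detected, at a median of 13.3 and 12.1 TPM. Rpp21 stood highest at 27.4 ± 0.191 TPM (SD, n = 2), before Pop4 at 22.3 ± 1.18 and Pop7 at 18.2 ± 0.721, and Rpp40 was lowest at 3.44 ± 0.417. A relative of the members, Rprl3, whose name marks it as ribonuclease P RNA-like, stood at 671 ± 7.12 TPM (SD, n = 2). Rpph1 and the ribozyme entry of Rmrp held 94.9% and 94.6% of the counts of all ribozyme genes, a share that leaves out the lincRNA entry of Rmrp. In the same way Rn7s1, Rn7s2, Rn7sk, Terc, Rny1 and Rny3 held 99.95% and 99.94% of the counts of the 562 misc_RNA genes. By contrast Rnu11 and Rnu12 held 0.0780% and 0.101% of those of the 1385 snRNA genes.

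Terc was the best measured of the sparse members. It gives telomerase its template, from which the reverse transcriptase Tert copies telomere repeats. Terc (ENSMUSG00000064796.1, chr3:96414437-96414859, minus strand, 423 bases, misc_RNA) held 34 and 45 counts, or 5.40 and 7.51 TPM (6.46 ± 1.49, SD, n = 2). All of its 324 windows are unique in the sense direction and its posterior SD was 0 in both libraries. It is the longest member. Its first 150 bases are shown with the telomere template CTAACCC, found once on the RNA strand, in capitals at bases 29 to 35:
Terc: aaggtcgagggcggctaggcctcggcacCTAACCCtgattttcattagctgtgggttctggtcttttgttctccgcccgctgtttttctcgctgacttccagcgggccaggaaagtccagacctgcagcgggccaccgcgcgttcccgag

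All 8 telomerase protein genes were detected. The proteins of the H/ACA core, which also modify ribosomal RNA in other particles, were the highest: Nop10 at 36.3 ± 0.445 TPM (SD, n = 2), Nhp2 at 30.0 ± 0.0636 and Gar1 at 24.0 ± 0.134. Tert stood at 4.53 TPM in replicate 1 and 7.78 in replicate 2 (6.16 ± 2.30, SD, n = 2), near the TPM of Terc, and Wrap53, which brings telomerase to Cajal bodies, was lowest at 4.67 ± 0.537.

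The Y RNAs and the minor spliceosome RNAs are the shortest members, and their values rest on few reads. Y RNAs bind the Ro60 protein (Trove2 in this annotation) and the La protein (Ssb). Rny1 (ENSMUSG00000065701.1, chr6:47788069-47788180, minus strand, 112 bases) held 11 and 22 counts, and Rny3 (ENSMUSG00000064945.1, chr6:47781624-47781725, plus strand, 102 bases) held 0 in both libraries. U11 and U12 recognise the 5′ splice site and the branch point of the rare U12-type introns. Rnu11 (ENSMUSG00000077323.1, chr4:132270080-132270213, minus strand, 134 bases) held 4 and 4 counts, and Rnu12 (ENSMUSG00000065176.1, chr15:83149644-83149794, plus strand, 151 bases) 29 and 41. All windows of these 4 genes are unique in the sense direction and their posterior SD, where they had reads, was 0. Rnu11 lies within the span of Gm28872 on the opposite strand, an overlap that the comparison of windows did not cover.

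The sequences show how little room each offers to a full read. Capitals mark the positions at which a read of 100 bases can start and still lie within the RNA, 13 in Rny1, 3 in Rny3, 35 in Rnu11 and 52 in Rnu12, against 201 in 7SL:
Rny1: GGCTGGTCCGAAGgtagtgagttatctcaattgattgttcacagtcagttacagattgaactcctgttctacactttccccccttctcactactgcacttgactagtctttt
Rny3: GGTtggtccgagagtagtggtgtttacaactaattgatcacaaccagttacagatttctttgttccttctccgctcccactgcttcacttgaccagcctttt
Rnu11: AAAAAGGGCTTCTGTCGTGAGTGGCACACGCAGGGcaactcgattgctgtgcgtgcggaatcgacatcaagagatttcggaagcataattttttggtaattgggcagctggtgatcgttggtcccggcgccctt
Rnu12: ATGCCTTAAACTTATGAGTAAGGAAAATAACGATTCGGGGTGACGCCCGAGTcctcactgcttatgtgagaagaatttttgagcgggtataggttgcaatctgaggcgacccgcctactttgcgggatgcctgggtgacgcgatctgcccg

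Both Y RNAs end in a run of 4 T, where RNA polymerase III stops. The first table divides counts by these numbers of positions, its effective lengths, so a single read weighs more the shorter the RNA. In replicate 1 it was worth 3.96 TPM in Rny1, 17.2 in Rny3, 1.47 in Rnu11 and 0.990 in Rnu12, but 0.256 in Rn7s1. The 11 and 22 reads of Rny1 thus became 43.6 and 91.5 TPM (67.5 ± 33.9, SD, n = 2), more per length than the 34 and 45 reads of Terc. Rnu12 stood at 28.7 and 42.6 TPM (35.7 ± 9.84, SD, n = 2) and Rnu11 at 5.89 and 6.18 (6.04 ± 0.205, SD, n = 2), so their detection rests on 4 reads a library in the latter. For Rny3 a count of 0 allows up to 3 reads, which is 51.5 TPM in replicate 1 and 54.1 in replicate 2. Its level could thus be as high as that of Rny1 in replicate 1, and its absence cannot be read from these libraries. The posterior mean TPM of Rny3 in the same table was 16.6 and 17.4 at no read, close to the worth of a single read.

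By TPM of the first table the order of the members was Rn7s1 with Rn7s2, Rn7sk, Rpph1, Rmrp, Rny1, Rnu12, Terc, Rnu11 and Rny3. Down to Rmrp, summed over its entries, the values of neighbours in this order did not overlap. Those of Rny1 and Rnu12 did not overlap either, but their posterior intervals in replicate 1, 21.5 to 71.8 and 18.7 to 39.1 TPM, did. Both were above Terc in each library by this measure, although Terc had more counts than either. In the second table Rny1 and Rnu12 were at 0 and Terc stood at 11.7 and 16.4 TPM. The range of Rnu11 lay within that of Terc, so these could not be ordered, and Rny3 could lie anywhere up to its limit. Within their biotypes Rny1 was rank 5 and Terc rank 14 of 562 misc_RNA genes, and Rnu12 was rank 26 and Rnu11 rank 33 of 1385 snRNA genes. Other small RNAs of the major spliceosome and nucleolus lay on both sides of them. The higher ones of those listed were Rnu2-10 (U2) at 1720 ± 113 TPM (SD, n = 2) and Rnu1a1 (U1) at 1289 ± 71.9. The highest snRNA gene of the first table, which is outside the list, stood at 2771 and 3603 TPM. Each of 4 U3 genes with the same value, Rnu3b1 to Rnu3b4, stood at 280 ± 8.70 and the U3 gene Rnu3a at 137 ± 54.9. The SD between libraries leaves out the placement of reads among copies. Of 30 snRNA genes with posterior mean counts of at least 20 in both libraries, 22 had a posterior SD above the square root of the count, averaged over the libraries. The U1 genes Rnu1b6 (15.1 and 8.52 TPM), Rnu1b1 and Rnu1b2 (6.62 and 0 TPM each) were below Rnu12. Of the other listed RNAs, Rnu6, Rnu5g, Rnu73b, Rnu7, Rn5s, Rprl1 and Rprl2 had 0 counts in the first table. As for Rny3, this does not show that they were absent or lower. The median length of the snRNA genes was 107 bases, and 193 of the 1385 had 99 bases or fewer, too short for a full read. Vaultrc5, a vault RNA made by RNA polymerase III, stood at 1.17 and 1.23 TPM. Bc1, an RNA polymerase III transcript of neurons, held 66.8 ± 4.72 TPM, close to Rny1. Rnu12 also has a coding gene at its start: Poldip3 starts 260 bases away on the opposite strand and stood at 47.3 and 46.2 TPM. Rnu11 overlaps Gm28872 on the opposite strand, which had 0 counts.

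Partner genes of the short members were all detected. Of the Y RNA binding proteins, 6 of 6 measured had a median of 61.0 and 61.6 TPM, led by Hnrnpk at 469 ± 26.1 TPM (SD, n = 2), Ncl (nucleolin) at 117 ± 2.93 and Ssb at 79.5 ± 3.27, with Trove2 lowest at 20.3 ± 0.778. The 11 minor spliceosome protein genes had a median of 14.3 and 13.1 TPM, with Zcrb1 at 41.5 ± 1.17, Scnm1 at 21.5 ± 0.0566 and Zrsr2 at 18.7 ± 2.72 the highest and Armc7 at 5.90 ± 1.20 the lowest. All 13 listed genes for subunits of RNA polymerase III, a chosen list and not every subunit, were detected. They ran from Polr1d at 46.3 ± 0.163, Polr3k at 25.4 ± 3.56 and Crcp at 24.8 ± 0.339 down to Polr3g at 1.85 ± 0.778. Of the 19 genes for its factors and repressor, Snapc4, which serves promoters like that of Rn7sk, stood at 45.6 ± 6.72, Maf1, the repressor of the polymerase, at 45.1 ± 3.86, Gtf3c1, of the factor that binds A and B boxes, at 43.1 ± 4.38, and Zfp143 lowest at 5.32 ± 0.700. In total 85 of 85 partner genes in 8 lists were detected.

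**Figure D3:**
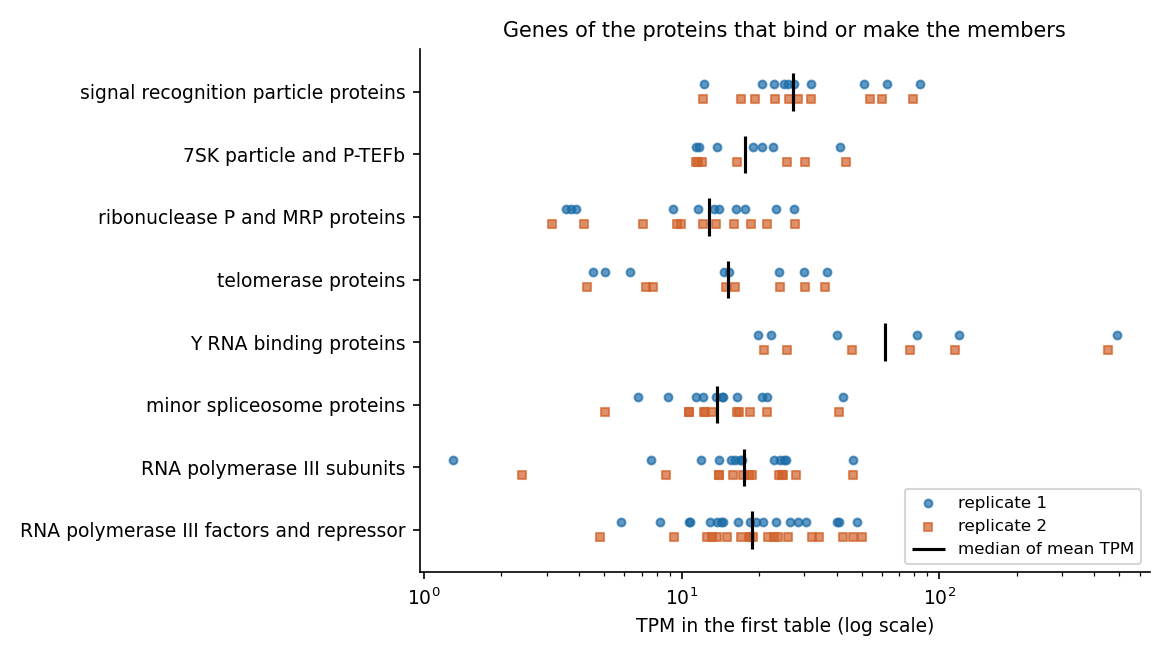
TPM in the first table, on a log axis, of the 85 genes of the proteins that bind or make the members, by list, with circles for replicate 1 and squares for replicate 2. Each black bar, labelled median of mean TPM in the key, lies at the mean of the medians of the 2 replicates. The bars ran from 12.7 TPM for ribonuclease P and MRP to 61.3 for Y RNA binding proteins, and Polr3g was the lowest gene shown.

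Which quantification was read decided whether most members were seen at all. Genes were called lower in the second table where its count, scaled to the same total with 0.5 added, was at least 4-fold lower in both libraries, among genes with at least 20 summed counts in either table. Of 9 member entries that reached this minimum, 8 were lower in the second table, against 2.33% of 20975 genes tested, and none was higher. The exception was Terc. Rny3 and Rnu11 had too few reads to be tested.

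Rn7s1 and Rn7s2 each fell from 498839 and 457671 counts in the first table to 1 and 0.5 in the second, which left the most abundant RNA of one table under the detection limit of the other. Rn7sk had 0 counts in the second table in both libraries. Its first-table counts were 73894 and 65294 times a floor of 3 counts set in place of the 0. Both tables come from the same reads, so this floor describes the size of the loss and is not a limit on it. Rmrp had 0 counts in both entries and both libraries. Its first-table count was 3312 and 3045 times the same floor for the ribozyme entry and 4454 and 3803 times for the lincRNA entry. Rpph1 kept 3 and 2 counts, or 2.64 and 1.79 TPM. Rny1 and Rnu12 went from 11 and 22, and from 29 and 41 counts, to 0. Terc went from 34 and 45 counts to 21 and 29, so that 61.8% and 64.4% of its first-table count stayed, and its TPM was higher in the second table, at 11.7 and 16.4.

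The same loss was seen in other short RNAs. Among genes with a single annotated transcript and at least 20 counts in both libraries of the first table, members left out, the second table gave 0 counts in both libraries for 137 of 144 shorter than 350 bases. For 44 genes of 400 to below 450 bases, the length class of Terc, the median share of the count that stayed was 14.6% and 16%, 15 were at 0, and 3 kept at least the share of Terc in both libraries. It rose to 48.1% and 47.7% at 500 to below 600 bases, 80.7% and 77.9% at 800 to below 1000 bases and 108% and 109% at 2000 bases or more. Spike-in RNAs, which have no place in the genome and 1 known sequence each, also kept less at shorter lengths: 7 of 500 to below 600 bases had medians of 49.8% and 49.3%, and 17 of 1000 to below 2000 bases had 77.2% and 76.0%. At the greater length they kept less than genes did, whose medians were 96.8% and 97.8% at 1000 to below 2000 bases. The shortest spike-in with at least 20 counts was 505 bases long, so none was as short as the members.

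**Figure D4:**
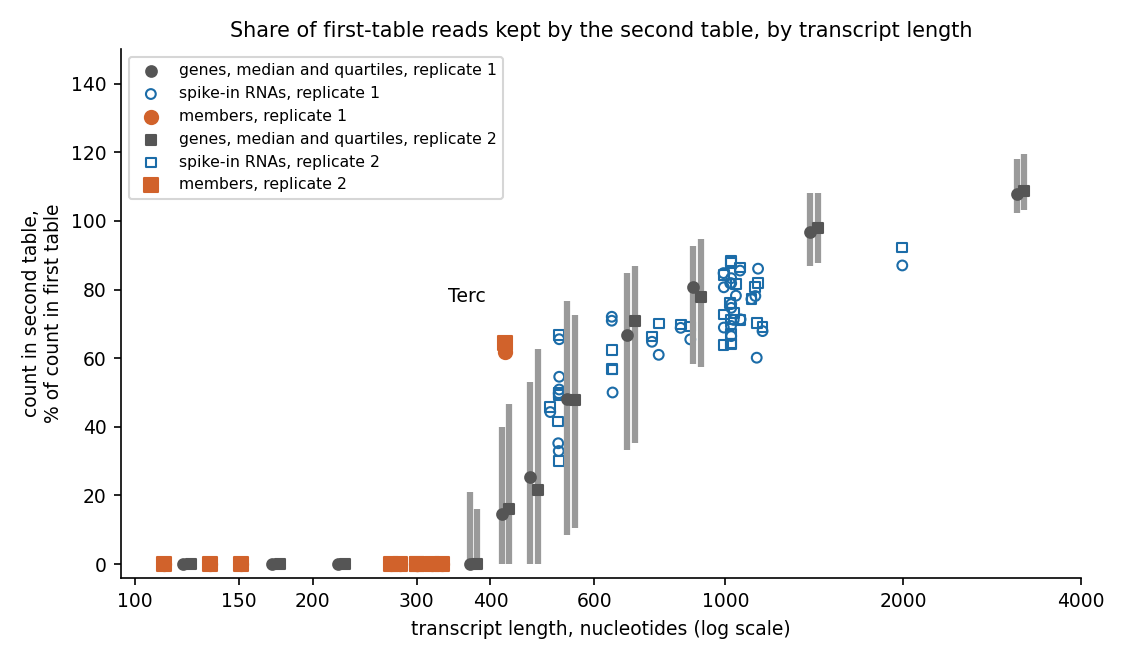
Count in the second table as a percentage of the count in the first, against transcript length in nucleotides on a log axis, with grey medians and quartile bars for genes by length class, open blue marks for spike-in RNAs and orange marks for members with reads, circles for replicate 1 and squares for replicate 2. Members shorter than 350 bases lay at or near 0%, like the genes of their length, and Terc lay at 61.8% and 64.4%, above the quartile bars of its length class.

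The effective lengths of the tables differed in the same range. The first table takes 99 bases off every length, while the second takes 351 and 350 off long transcripts and uses 68.2 bases for Rn7s1 and 116 for Terc in replicate 1, against 201 and 324 in the first. These lengths enter the TPM. The part that they, fragment length, read pairing or the index of either quantifier have in the lost counts was not tested. Of the 85 partner genes 0 were lower in the second table, a share near the 2.33% of all genes. Nop10 went from 718 and 672 counts to 379 and 330, a smaller drop than the rule asks for. Of 13 other structured RNAs with enough reads 11 were lower, among them Rnu2-10, Rnu1a1, Rprl3, Bc1 and Rn7s6, and the 2 that were not were the mitochondrial ribosomal RNAs mt-Rnr1 and mt-Rnr2.

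Between the 2 libraries the abundant members were slightly lower in replicate 2. An exact two-sided conditional binomial test of rounded counts, scaled by TMM and adjusted by the Benjamini-Hochberg method over 18492 genes with at least 20 summed counts, covers counting error only, and compares these libraries rather than conditions. Of 9 member entries tested 6 were called, all lower in replicate 2, against 25.1% of all genes. Calls were more common at high counts, at 69.7% of the 1109 genes with at least 10000 summed counts. None of the members, and 531 genes in all, also reached a 2-fold difference.

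The fold of replicate 2 over replicate 1 was 0.904 for Rn7s1 and for Rn7s2 (95% Clopper-Pearson interval 0.900 to 0.907) and 0.870 for Rn7sk (0.865 to 0.876). It was 0.872 for Rpph1 (0.859 to 0.885), with an adjusted p of 4.14e-69 by the exact binomial test. For Rmrp it was 0.906 (0.880 to 0.932, adjusted p = 3.47e-10, exact binomial test) in the ribozyme entry and 0.841 (0.820 to 0.862, adjusted p = 1.03e-39, exact binomial test) in the lincRNA entry, or 0.869 (0.852 to 0.885) for their sum. The middle 50% of genes with at least 10000 summed counts lay between 0.917 and 1.00, and 178 of these 1109 had a fold at or below that of Rn7s1. For either 7SL gene the interval leaves out the posterior SD of 3.50% and 4.83% of the count, which does not enter the fold of their sum (0.904, 0.901 to 0.906). The intervals and adjusted p of the 2 Rmrp entries leave it out as well. It was 4.95% and 5.07% of the ribozyme count and 3.57% and 4.03% of the lincRNA count. The separate folds of these entries therefore depend on how the quantifier split their reads.

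The sparse members had folds above or near 1, with wide intervals. Rny1 was 1.97 (0.916 to 4.5, adjusted p = 0.204, exact binomial test), Rnu12 1.39 (0.845 to 2.32, adjusted p = 0.373, exact binomial test) and Terc 1.30 (0.817 to 2.10, adjusted p = 0.465, exact binomial test). Rnu11, with 4 reads in each library, had a fold of 0.985 (0.183 to 5.29) and was below the minimum for a test. The intervals of Terc and Rnu11 included the folds of all 6 abundant entries, and that of Rnu12 all but the 0.841 of the Rmrp lincRNA entry, so a difference of that size was not detectable in them at this depth. The interval of Rny1 lay just above these folds. The summed TPM of the blood markers and of the choroid plexus markers, the latter mainly from 1 gene, was higher in replicate 1, as were the abundant members. The part of these tissues in the differences was not tested.

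**Figure D5:**
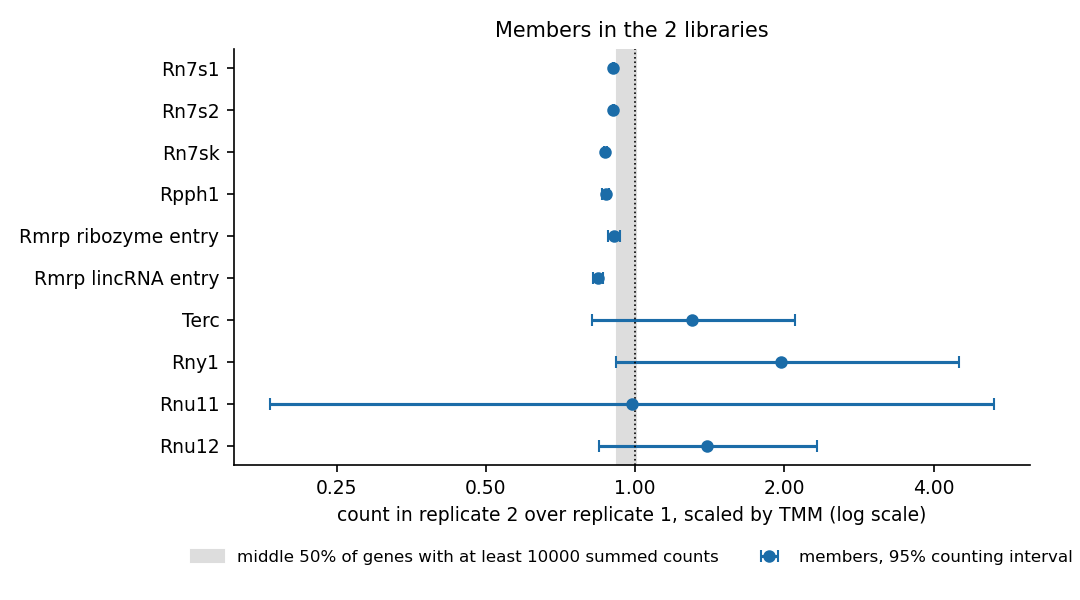
Count in replicate 2 over replicate 1 for the 10 member entries with reads, scaled by TMM, on a log axis, with 95% counting intervals and a grey band for the middle 50% of genes with at least 10000 summed counts. The 6 abundant entries lay between 0.841 and 0.906, and the intervals of Terc, Rny1, Rnu11 and Rnu12 all included 1.

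Of the 85 partner genes 19 were called between the libraries, 8 higher and 11 lower in replicate 2, near the 25.1% of all genes, and none by 2-fold. Those called included the P-TEFb cyclins Ccnt2 (20.6 and 30.1 TPM, log2 ratio of counts 0.32, adjusted p = 1.23e-10) and Ccnt1 (22.7 and 25.6 TPM, 0.19, adjusted p = 0.00122) and the catalytic subunit Tert (4.53 and 7.78 TPM, 0.43, adjusted p = 3.96e-04), all higher in replicate 2 by the exact binomial test. Maf1 was lower in replicate 2 (47.8 and 42.3 TPM, -0.26, adjusted p = 1.12e-04), as were Hnrnpk (488 and 451 TPM, -0.18, adjusted p = 1.83e-18) and Ssb (81.8 and 77.2 TPM, -0.16, adjusted p = 0.00294). The largest log2 ratio in size among the 19 was that of Srp54c, also lower (22.9 and 17.1 TPM, -0.52). Besides Maf1, 5 genes for polymerase III factors were called. Bdp1 (0.33), Snapc3 (0.34) and Pou2f1 (0.26) were higher in replicate 2, and Gtf3c4 (-0.15) and Zfp143 (-0.36) were lower. None of the 13 listed polymerase III subunit genes was called by the exact binomial test.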

How the data were processed

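Total RNA of the left cerebral cortex was sequenced in 2 libraries (1 group, replicate numbers from the labels). The first table rests on alignments to the transcriptome, per the deposited file descriptions. Its expected counts and TPM carry RSEM's column names per the file headers, as do the posterior SD and interval bounds (scores), in which the authors' quantifier shared out ambiguous reads. The second table's estimated counts and TPM, as deposited, carry kallisto's column names and were summed per gene here. Assembly mm10 and GENCODE M21 are named per the deposited file descriptions; versions of the authors' tools: not given in the sources used here. CAST/EiJ variants were not modelled here.

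Symbols, biotypes and coordinates came from GENCODE M21. Spike-ins, phiX and 26248 numbered entries without counts stayed out of library sizes and tests. Expected counts were rounded for the binomial test; log2 ratios had 0.5 added. Calls needed an adjusted p under 0.05, or a 4-fold difference between tables in both libraries. Intervals are 95% Clopper-Pearson and, like the floor of 3 counts, cover counting error only. TMM came from edgeR 4.0.16 (R 4.3.3) and size factors from DESeq2 1.42.0, and scipy 1.17.1 with numpy 2.4.6, matplotlib 3.10.9, pandas 2.3.3 and Python 3.11.15 did the rest. The binomial test was run on simulated Poisson counts. These hold counting error only, as the test assumes, so the run cannot show how the test behaves on real libraries.

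Members and lists were chosen with earlier results of these data known. Named were all members, the 3 highest and the lowest gene of each partner list, other structured RNAs with a mean TPM of at least 1, and genes overlapping members; of the nearest coding genes, those within 300 bases. Other list genes named (Larp7, Mepce and partner genes called between libraries) were chosen after their values were seen. Of the partner symbols Srpra, Ro60 and Zcchc11 matched no annotated gene. The sequence of Rn7s1 and Rn7s2 is not reported here.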

Additional observations from a re-analysis of the deposited data

How the results depend on the processing

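Which members are detected depended on the table: 10 entries were detected in the first table, 2 in the second and 11 by posterior mean TPM, which is above 0 for Rny3 without reads. The members' share of counts was 4.20% in the first table, 9.72e-05% in the second and 4.95% when set against protein-coding counts. Their share of TPM was 31.5%, 0.00179% in the second table, 30.4% by posterior mean TPM and 59.4% when set against protein-coding TPM. Leaving out a replicate gave 4.04% to 4.36% of counts and 30.8% to 32.2% of TPM, and 10 detected entries each time. The count of entries lower in the second table, 8 of 9, stayed between 7 and 9 under the other pseudocounts, minimums and single libraries. The 9 was of 11 entries, without a count minimum. Of all genes 1.4% to 2.54% were lower under these settings. With Rn7s1 and Rn7s2, and the Rmrp entries, summed, the count was 6 of 7, against 2.32% of all genes. Summing was an alternative chosen after seeing the data. Of entries differing between libraries, 6 of 9 were called under total, DESeq2 and spike-in scaling, against 23.5%, 23.9% and 26.9% of all genes. Without a count minimum 6 of 10 were called, against 15% of all genes. When summed as above, 4 of 7 were called, against 25.1% of all genes. In the second table only Terc had enough reads for that test and 0 were called by the exact binomial test, with 6306 of 20324 genes called in all; 0 member entries had an unadjusted p under 0.05. Over these scalings the log2 ratio of Rn7s1 ranged from -0.17 to -0.10. No paired analysis was possible because the libraries form 1 group. Leaving out a replicate is not possible for the comparison of the libraries themselves. Depth limits Rny1, Rny3, Rnu11, Rnu12 and Terc to differences larger than their intervals.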
